A study of Mus musculus with 11 samples.

Results

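Complete depletion of regulatory T cells (Tregs) was compared with Treg-sufficient skin across all measured genes. The comparison used the 3 libraries labelled FullDT (ΔTreg) and the 2 labelled PBS (control), 5 of the 11 libraries of the series, and its members were taken by these labels, though the comparison itself was chosen with earlier results of these data known. RNA from whole dorsal skin of neonatal mice was sequenced in bulk, from 4 mm biopsies, with 2 µg of total RNA per library and an RNA integrity score above 7. Every mouse of the series, controls included, carried the Foxp3-DTR transgene, in which the Foxp3 promoter drives the diphtheria toxin receptor, so that diphtheria toxin (DT) kills cells that express Foxp3. ΔTreg mice received 30 ng of DT per g of body weight on postnatal days 6, 8, 10 and 12 (P6, P8, P10 and P12) and were harvested on P13. Control mice received PBS, and the labels do not give their day of harvest. The paper describes its comparisons with controls on P9 and on P13 as age-matched, but does not give the day of these 2 mice. Mice with late depletion (ΔLTreg, n = 3, DT on P10 and P12) were also harvested on P13 and served as a further comparison, of equal age. Mice with early depletion (ΔETreg, n = 3, DT on P6 and P8, harvested on P9) are given only as values. By their Xist and Ddx3y counts the control group held 1 female and 1 male, the ΔTreg and ΔLTreg groups each held 2 females and 1 male, and the ΔETreg group held 1 female and 2 males. The labels do not say whether mice of a group were littermates, so p-values measure only the spread between these mice.

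Tregs are CD4 T cells that restrain other lymphocytes and myeloid cells, partly by consuming interleukin-2 and by engaging costimulatory ligands, and their loss releases T cells from this control. Neonatal skin at this stage is building hair follicles and a dermal matrix, and its keratinocytes, fibroblasts and endothelial cells answer lymphocyte cytokines by changing their own transcription. RNA from whole skin mixes all of these cells.

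The targeted gene was low in every library. Foxp3 (ENSMUSG00000039521, GRCm38 chromosome X, 7573644 to 7595245) was counted 20 and 14 times in control libraries and 9, 19 and 18 times in ΔTreg libraries, and the groups overlapped. With a log2 fold change of -0.3 (SE 0.31, adjusted p = 0.546), depletion was not detectable from this transcript at this depth. Total counts ran from 25075547 to 29104226 in control mice and from 23717325 to 34159435 in ΔTreg mice. The 6 ribosomal-RNA-like features of the table held 3.51% and 3.05% of the counts in the control mice and 1.14% to 1.56% in the ΔTreg mice, and without them 3918 genes rather than 3946 passed the test against control. Every adjusted p-value below comes from edgeR's quasi-likelihood test over 18375 genes with Benjamini-Hochberg adjustment, and a gene called higher or lower had an adjusted p under 0.05. Both comparisons used the same 3 ΔTreg mice, and log2 fold changes are ΔTreg minus control unless ΔLTreg is named. Levels are given as CPM, counts scaled to library size, which are not corrected for gene length and were compared only within a gene.

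Genes were grouped into 80 lists of cell type markers and pathways. In 31 lists at least 50% of the tested members were higher in ΔTreg skin, beside 12.1% of all tested genes. In 3 lists, those named dermal papilla, imprinted growth and DNA replication, at least 50% were lower, beside 9.39% of all tested genes. Against ΔLTreg 10.7% of all tested genes were higher and 6.11% were lower. The lists with a majority of higher members held markers of T cells, macrophages and neutrophils, and genes of antigen presentation, chemokines, complement, inflammatory cell death, stressed keratinocytes, glycolysis and the hypoxia response. Lists of cytotoxic cells, natural killer (NK) cells and eosinophils are counted among the 31, but many of their members were near 0 in control mice. Other lists held such members too, among them Cd6 (T cell), Tigit (Treg), Chil3 (monocyte) and Sprr2a1 (stressed keratinocyte). A gene could pass the filter on low counts through the ΔTreg mice alone, and such a member had to be higher, so the counts and medians of lists with members near 0 in control mice are descriptions and lend no support. In bulk skin, fewer cells of a type and less RNA per cell cannot be told apart, and the same holds for more of either.

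**Figure D1:**
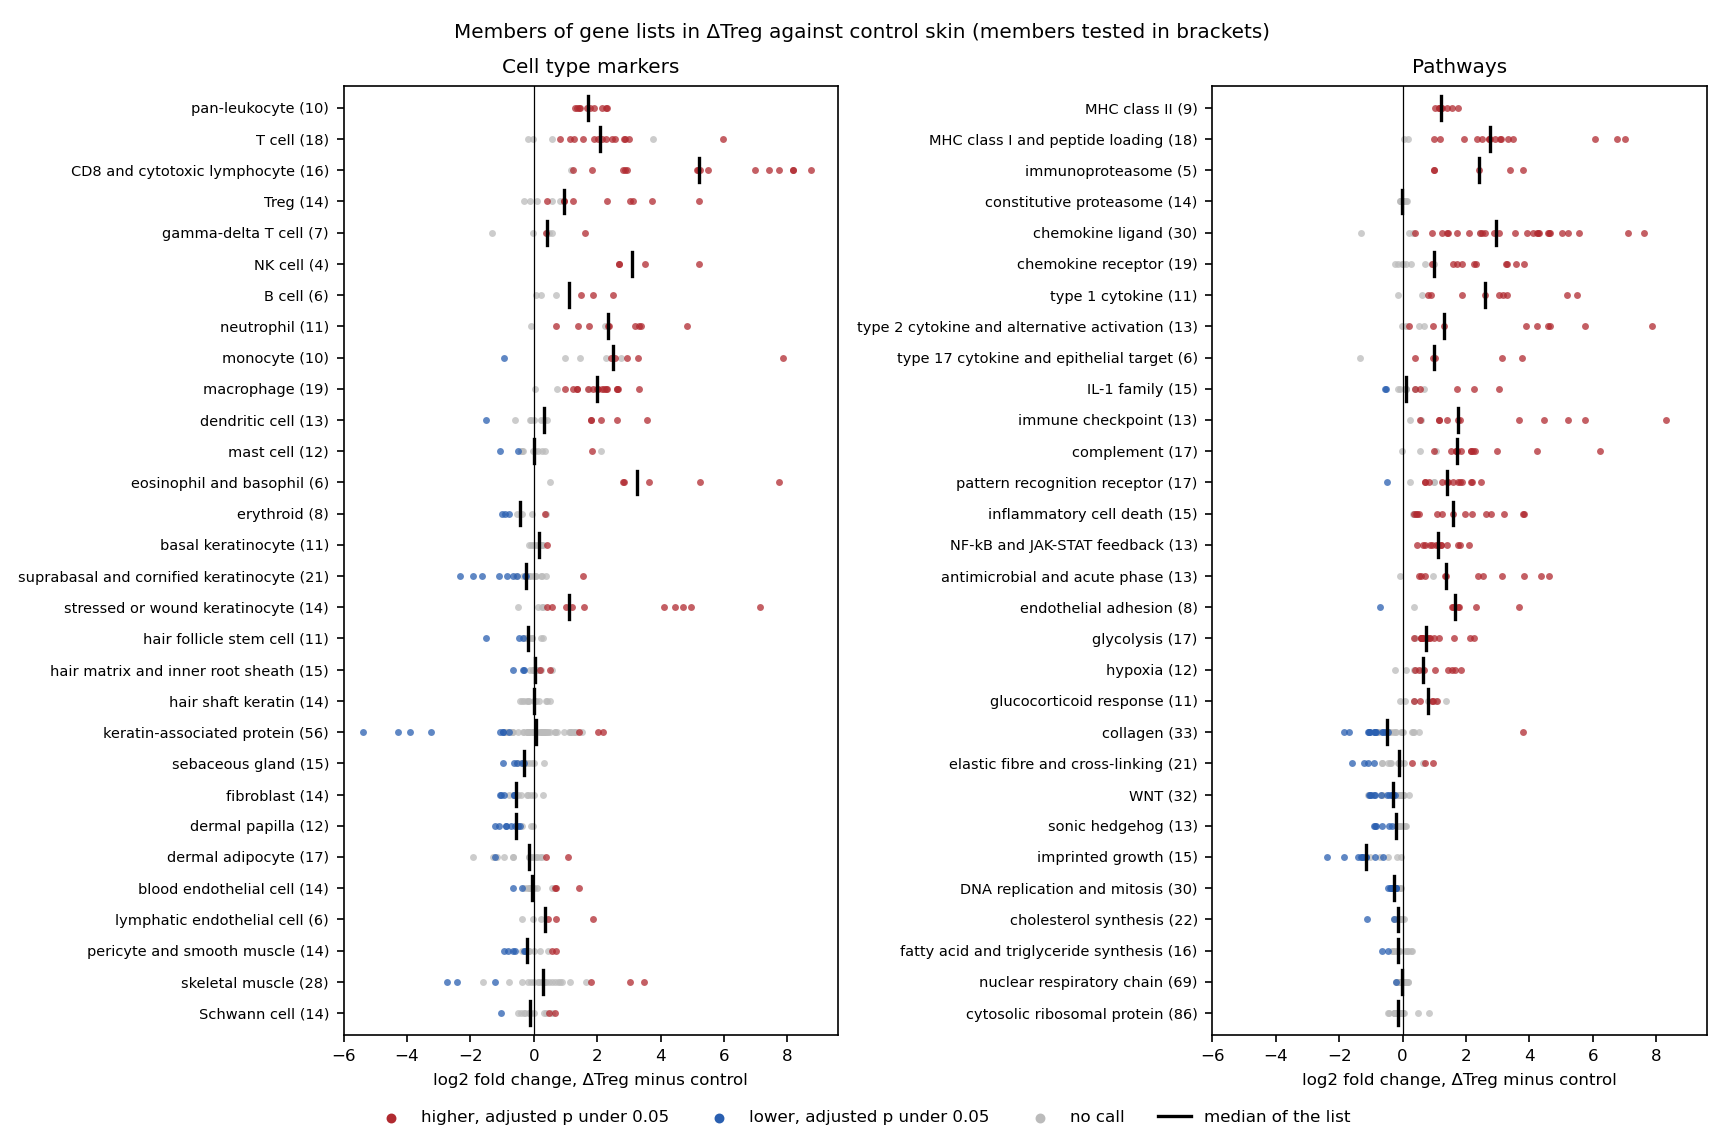
Log2 fold change (ΔTreg minus control) of each tested member of the lists, with cell types in one panel and pathways in the other; each point is a gene, filled where it passed the test, and the bar is the list's median. The medians of the cytotoxic lymphocyte list (5.2), the chemokine ligand list (2.95) and the MHC class I list (2.75) lie to the right of 0, and that of the imprinted growth list (-1.15) lies to the left. The cytotoxic median rests on low control counts and lends no support.

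Transcripts of leukocytes and T cells rose. All 10 pan-leukocyte genes were higher, beside 12.1% of all genes, with a median log2 fold change of 1.71 beside -0.0059 over all genes tested, as were 14 of 18 T cell genes (median 2.1). Ptprc, the CD45 phosphatase of all leukocytes, was at 13.9 and 10.9 CPM in control mice and 52.3, 39.6 and 47.8 CPM in ΔTreg mice. Cd3e, a subunit of the T cell receptor complex (GRCm38 chromosome 9, 44998740 to 45009627), was at 2.66 and 4.54 CPM in control mice and 11.6, 9.59 and 10.6 CPM in ΔTreg mice. All ΔTreg mice lay above both controls for each gene, with log2 fold changes of 1.91 (SE 0.24, adjusted p = 0.000301) and 1.56 (SE 0.20, adjusted p = 0.00032). The receptor-proximal kinases Lck and Zap70 had log2 fold changes of 2.03 and 2.56. Cd4, the coreceptor of helper T cells and Tregs, was at 1.44 and 0.876 CPM in control mice and 7.25, 7.51 and 10.2 CPM in ΔTreg mice, without overlap (log2 fold change 2.83, adjusted p = 0.000166). Against ΔLTreg the changes of Cd3e and Cd4 were 0.93 and 3.43, with adjusted p-values of 0.00302 and 2.33e-05. Tcf7, a transcription factor of resting T cells that epithelial cells also express, did not pass the test (log2 fold change -0.18, adjusted p = 0.542).

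Transcripts of cytotoxic lymphocytes were near the detection limit in control skin. Of 16 tested members of this list several, among them Cd8a, Cd8b1, Gzma, Gzmb, Ifng and Tbx21, had at most 3 counts in each control mouse. These members passed the filter through the other groups, so no tally is given. The median was 5.2, or 4.27 with genes absent from control mice set at their bound. The size rests on low control counts, since the median over the 4 members with at least 10 counts in every library was 2.36. Cd8a, the coreceptor of cytotoxic T cells (GRCm38 chromosome 6, 71373427 to 71379173), was at 0 and 0.0797 CPM in control mice, 0.0298, 0.0392 and 0 CPM in ΔLTreg mice and 10.2, 7.01 and 9.15 CPM in ΔTreg mice. Gzmb, the granule protease granzyme B (GRCm38 chromosome 14, 56258838 to 56262260), was at 0.105 and 0 CPM in control mice and 25.4, 26.8 and 25.4 CPM in ΔTreg mice. Neither gene overlapped between groups, and the ratios of pooled counts per library size were 231 (95% exact interval 63.8 to 1913) for Cd8a and 463 (95% exact interval 158 to 2248) for Gzmb, where the interval covers counting error only. Gzma, which encodes granzyme A, had a ratio of 305 (95% exact interval 104 to 1480). Ifng, the cytokine interferon gamma, rose from 0.105 and 0 CPM to 2.32, 2.43 and 1.76 CPM (adjusted p = 0.000769), a ratio of 38.6 (95% exact interval 13 to 189). Of 8 listed NK cell genes 4 were too low to be tested, and 3 of the other 4 (Ncr1, Klrb1c and Klrc1) had at most 3 counts in each control mouse and passed the filter through the other groups, so no tally is given. The calls of Ncr1 and Klrb1c were lost without control mouse 2 (adjusted p = 0.122) and without control mouse 1 (adjusted p = 0.0614). The granzyme gene Gzmc was at 1.58 and 1.71 CPM in control mice and 9.78, 10.7 and 11.2 CPM in ΔTreg mice.

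Genes that Tregs share with other activated T cells were higher rather than lower. Of 14 tested members of the Treg list 9 were higher, none was lower and the median was 0.95. Tigit, a member with 1 and 0 counts in the control mice, passed the filter through the other groups, so this tally is a description only. Icos, a costimulatory receptor, was at 0.245 and 0.239 CPM in control mice and 4.12, 2.82 and 2.94 CPM in ΔTreg mice. Tnfrsf18, which encodes the receptor GITR, was at 9.56 and 9.6 CPM in control mice and 19.7, 19.5 and 16.4 CPM in ΔTreg mice. The ΔTreg mice lay above the controls in both genes (log2 fold changes 3.73 and 0.95, adjusted p = 9.84e-05 and 0.000147). Il2ra, the high-affinity interleukin-2 receptor chain, had a log2 fold change of 3.02, and the list of immune checkpoints had 11 of 13 members higher (median 1.75). In that list Cd274, the ligand PD-L1, rose from 3.12 and 2.11 CPM to 38.5, 35.9 and 26.9 CPM (log2 fold change 3.68, adjusted p = 8.17e-06). Ido1, a tryptophan-degrading enzyme, had no count in either control mouse and was at 1.07, 1.96 and 1.02 CPM in ΔTreg mice, at least 11.3-fold higher with the floor set at 3 counts per library. A member with no count in control mice could only be higher, so the tally of the checkpoint list lends no support.

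Macrophage genes rose in all but 3 of the 19 tested members (16 higher, none lower, median 1.98). The summed level of the list was 295 to 331 CPM in control mice and 872 to 1112 CPM in ΔTreg mice. Lyve1, a hyaluronan receptor of resident macrophages and of lymphatic endothelium (GRCm38 chromosome 7, 110850607 to 110863239), was at 16.4 and 20.3 CPM in control mice and 68.1, 66.04 and 67.2 CPM in ΔTreg mice. Mrc1, the mannose receptor CD206, was at 41.3 and 37.6 CPM in control mice and 204, 123 and 158 CPM in ΔTreg mice. The groups lay apart in both genes, with log2 fold changes of 1.87 (SE 0.19, adjusted p = 6.69e-05) and 2.04 (SE 0.32, adjusted p = 0.00108), and against ΔLTreg of 2.05 and 2.96. The haemoglobin scavenger receptor gene Cd163 had a log2 fold change of 1.7. Nos2, the inducible nitric oxide synthase (GRCm38 chromosome 11, 78920787 to 78960254), was at 1.33 and 1.75 CPM in control mice and 12.3, 19.7 and 13.6 CPM in ΔTreg mice. The 3 ΔTreg values of Nos2 lay above both controls (log2 fold change 3.31, SE 0.25, adjusted p = 9.87e-06). Csf1r, the growth factor receptor that most macrophages depend on, did not pass the test (log2 fold change 0.72, adjusted p = 0.068). Of the lymphatic list, which includes Lyve1, 3 of 6 members were higher, so Lyve1 alone does not tell these cells apart. Without control mouse 2, 10 macrophage genes passed the test.

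Granulocyte genes were also higher. Of 16 listed neutrophil genes 5 were too low to be tested and 9 of the other 11 rose (median 2.33). Without control mouse 2 the median was 1.68, and Ltf had at most 3 counts in each control mouse. The call of Csf3r was lost without ΔTreg mouse 1 or ΔTreg mouse 3 (adjusted p = 0.0792 and 0.0546). Of 11 listed eosinophil and basophil genes 5 were too low to be tested, and 3 of the other 6 (Siglecf, Prg2 and Mcpt8) had at most 3 counts in each control mouse, so no tally is given. S100a9, a calcium-binding protein abundant in neutrophils and stressed keratinocytes, was at 2.03 and 1.79 CPM in control mice and 10.8, 9.89 and 9.24 CPM in ΔTreg mice. Ear2, a ribonuclease of eosinophils and some macrophages, was at 1.33 and 1.23 CPM in control mice and 54.7, 44.5 and 46.3 CPM in ΔTreg mice. Both genes were separated between groups, with log2 fold changes of 2.38 (adjusted p = 4.69e-06) and 5.23 (adjusted p = 1.63e-06), although Ear2 belongs to a family of near-identical genes among which reads may be split. Alox15, a lipoxygenase of eosinophils and macrophages, rose from 1.02 and 0.757 CPM to 9.3, 4.84 and 5.41 CPM (log2 fold change 2.85). Mcpt8, a basophil protease, had no count in either control mouse and was at 1.63, 0.475 and 0.773 CPM in ΔTreg mice, at least 8.03-fold higher. The eosinophil peroxidase gene Epx and the neutrophil surface marker gene Ly6g were too low to be tested.

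Monocyte, dendritic and mast cell lists were mixed. Of 10 tested monocyte genes 5 were higher and 1 was lower (median 2.49). Itgam, an integrin of myeloid cells, rose from 3.19 and 2.19 CPM to 15.1, 14.8 and 13.8 CPM (log2 fold change 2.43, adjusted p = 0.000325). Ccr2 and Ly6c2, the defining genes of inflammatory monocytes, had log2 fold changes of 0.98 and 2.76 with adjusted p-values of 0.31 and 0.0542. Their levels differed between the control mice, at 11.1 and 3.23 CPM for Ccr2, and Ccr2 overlapped between groups. Without control mouse 1 the monocyte median was 4.17, and without control mouse 2, 3 monocyte genes were higher. Cd207, the Langerhans cell lectin langerin, was at 3.57 and 4.46 CPM in control mice, 4.62, 4.04 and 3.73 CPM in ΔLTreg mice and 1.2, 1.22 and 1.73 CPM in ΔTreg mice. It was lower in each ΔTreg mouse than in any control or ΔLTreg mouse, with log2 fold changes of -1.52 (adjusted p = 0.000251) and -1.57 against ΔLTreg (adjusted p = 0.000125). Of 13 tested dendritic cell genes 5 were higher and 1, Cd207, was lower (median 0.31). Ccl22, a chemokine of activated dendritic cells, rose from 2.14 and 1.95 CPM to 15.01, 10.6 and 12.1 CPM (log2 fold change 2.61), while the dendritic cell growth factor receptor gene Flt3 did not pass the test (log2 fold change -0.11). Of 12 mast cell genes 1 was higher and 2 were lower, beside 12.1% and 9.39% of all genes. The mast cell chymase gene Cma1 did not pass the test (log2 fold change -0.4, adjusted p = 0.321), whereas Hdc, the histamine-forming enzyme that other leukocytes also express, rose from 6.62 and 4.3 CPM to 24.6, 18.2 and 16.4 CPM.

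Genes of antigen presentation rose. Of 18 tested genes of MHC class I and peptide loading 16 were higher (median 2.75), as were all 5 immunoproteasome genes (median 2.4) and 8 of 9 MHC class II genes (median 1.2), whereas none of 14 constitutive proteasome genes passed the test (median -0.04). The class I list took 0.192% and 0.195% of all counts in the control mice and 0.69% to 0.746% in the ΔTreg mice. H2-K1, a classical class I heavy chain, was at 193 and 170.2 CPM in control mice and 1604, 1589.9 and 1490.4 CPM in ΔTreg mice. B2m, the light chain of class I, was at 132 and 112 CPM in control mice and 1069.7, 1043 and 965 CPM in ΔTreg mice. Both were far apart between groups, with log2 fold changes of 3.1 (SE 0.16, adjusted p = 1.42e-06) and 3.07 (SE 0.18, adjusted p = 1.95e-06), although class I heavy chains are near-identical copies. The peptide transporter gene Tap1 had a log2 fold change of 2.76, and the immunoproteasome subunit gene Psmb9 rose from 5.15 and 4.86 CPM to 70.4, 77.6 and 61.3 CPM (log2 fold change 3.8). Cd74, the invariant chain of class II, rose less, from 126 and 126 CPM to 347, 304 and 338 CPM (log2 fold change 1.39). Against ΔLTreg the changes of H2-K1, B2m and Cd74 were 1.96, 2.09 and 1.15.

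**Figure D2:**
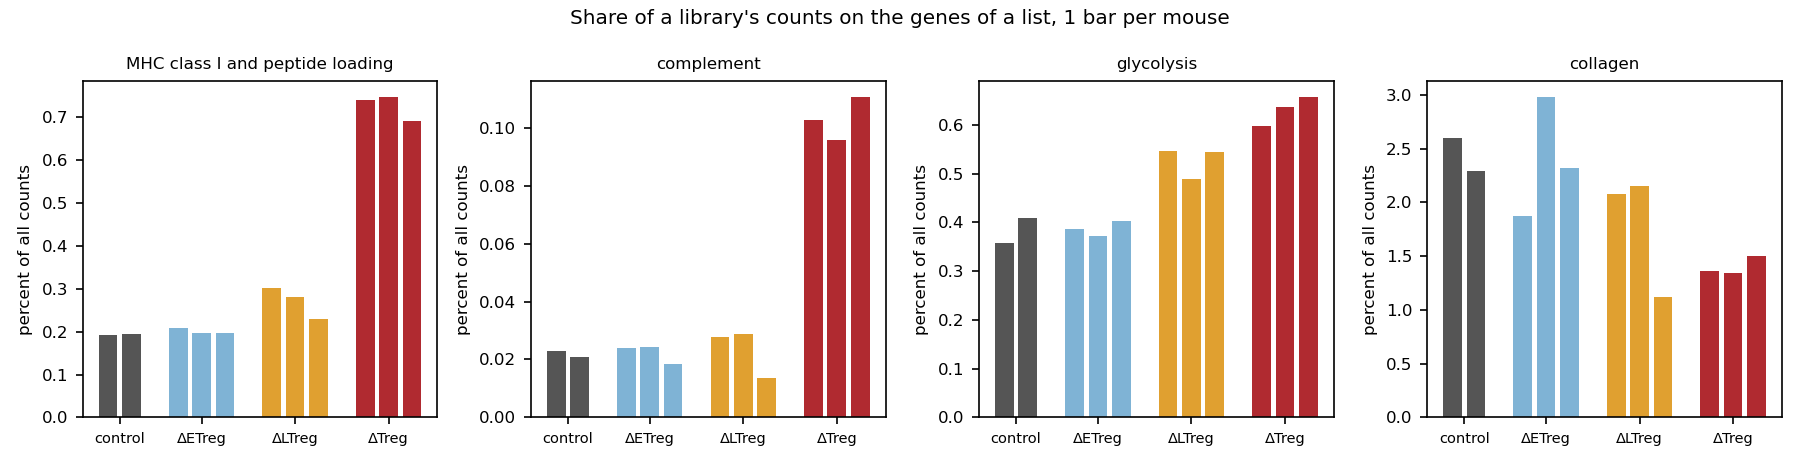
Share of all counts (percent, linear axis from 0) taken by the MHC class I, complement, glycolysis and collagen lists in each of the 11 mice; each bar is a mouse. The class I share was 0.69% to 0.746% in the ΔTreg mice and at most 0.303% in any other mouse, and the collagen share was 1.34% to 1.5% in the ΔTreg mice, 2.29% and 2.60% in the control mice and 1.12% to 2.16% in the ΔLTreg mice, which overlapped the ΔTreg mice.

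Chemokine ligands rose in 26 of 30 tested members (median 2.95), and chemokine receptors in 10 of 19 (median 0.98). Without control mouse 1 the receptor median was 1.76. Cxcl9, an interferon-induced ligand of the T cell chemokine receptor CXCR3 (GRCm38 chromosome 5, 92321347 to 92328079), was at 1.09 and 0.677 CPM in control mice, 3.16, 7.14 and 1.78 CPM in ΔLTreg mice and 116, 148 and 109 CPM in ΔTreg mice. Its log2 fold change was 7.12 (SE 0.51, adjusted p = 7.57e-06) against control and 4.99 against ΔLTreg, and the ΔTreg mice overlapped neither group. Cxcl10, another CXCR3 ligand, rose from 4.2 and 1.83 CPM to 64.7, 69.9 and 47.6 CPM, and Cxcr3 itself from 0.385 and 0.279 CPM to 3.47, 2.43 and 4.05 CPM. Ligands that attract eosinophils rose too, with log2 fold changes of 2.5 for Ccl11 and 4.65 for Ccl24. Cxcl3, a ligand that attracts neutrophils, had no count in either control mouse and was at least 7.13-fold higher. The Cxcl9 start region is shown because Cxcl9 had the largest fitted change among the chemokines named here that were present in both control mice. The window is GRCm38.p6 chr5:92328030-92328329 on the minus strand, from 250 bases before to 50 after the RefSeq start, with capitals marking a match to the core of the interferon-stimulated response element (ISRE), GAAANNGAA, first base at -175.
Cxcl9: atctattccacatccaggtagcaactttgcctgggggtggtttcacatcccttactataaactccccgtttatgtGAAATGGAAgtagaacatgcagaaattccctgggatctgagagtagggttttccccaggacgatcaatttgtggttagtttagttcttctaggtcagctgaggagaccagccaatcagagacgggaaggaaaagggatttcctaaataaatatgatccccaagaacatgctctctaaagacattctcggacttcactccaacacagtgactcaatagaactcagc
On either strand this core was found in 21.5% of the 721 windows of genes higher by at least 2-fold, in 6.87% of the 233 windows of genes lower by at least 2-fold and in 7.45% of all 12824 windows of tested genes. The gamma-activated sequence TTCNNNGAA was found in 12.5%, 7.3% and 6.9% of the same windows. The sets were not matched on base composition, and a match is not a binding site.

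Members of both the type 1 and the type 2 cytokine programmes rose. Of 11 tested type 1 genes 9 were higher (median 2.58), and of 13 tested type 2 and alternative activation genes 9 were higher (median 1.29). Ifng and Chil3 had at most 3 counts in each control mouse and passed the filter through the other groups, so these tallies are descriptions and lend no support. Il13, a cytokine of type 2 lymphocytes (GRCm38 chromosome 11, 53631324 to 53634702), was at 0.28 and 0.159 CPM in control mice, 0.298, 0.314 and 0.0939 CPM in ΔLTreg mice and 6.52, 5.08 and 4.98 CPM in ΔTreg mice. Il4, its partner cytokine, was at 1.05 and 0.876 CPM in control mice and 1.03, 1.07 and 0.742 CPM in ΔTreg mice. Il13 was separated between the groups (log2 fold change 4.6, SE 0.38, adjusted p = 1.58e-05), while Il4 overlapped and did not pass the test (log2 fold change -0.04, adjusted p = 0.94). Retnla, a secreted product of alternatively activated macrophages, was at 2.1 and 3.19 CPM in control mice and 146, 110.4 and 166 CPM in ΔTreg mice, without overlap (log2 fold change 5.74, adjusted p = 1.63e-06). Chil3, a chitinase-like protein of the same programme, had a ratio of 271 (95% exact interval 48.4 to 10721). Il12rb1, the shared receptor chain of interleukin-12 and interleukin-23, had a log2 fold change of 3.28. Of the 15 listed genes of type 17 cytokines and their epithelial targets, 9, among them Il17a, Il17f and Il22, were too low to be tested, and 5 of the other 6 were higher. Lcn2, an iron-sequestering antimicrobial protein, rose from 1.4 and 1.04 CPM to 13.8, 11.3 and 7.73 CPM (log2 fold change 3.15, adjusted p = 0.000239). Without control mouse 2, 3 type 17 genes passed the test.

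Complement genes rose in 14 of 17 tested members (median 1.73). C3, the central component of the cascade, was at 5.39 and 2.23 CPM in control mice, 6.88, 7.84 and 2.63 CPM in ΔLTreg mice and 285, 254 and 336 CPM in ΔTreg mice. The ΔTreg values of C3 lay above all others (log2 fold change 6.23, SE 0.49, adjusted p = 1.27e-05), and C6, of the membrane attack complex, had a log2 fold change of 4.23. Inflammatory cell death genes rose in 14 of 15 members (median 1.58). Gsdmc, a pore-forming gasdermin of epithelia, was at 4.62 and 3.66 CPM in control mice and 72.2, 54.9 and 46.5 CPM in ΔTreg mice. Zbp1, a sensor of nucleic acids, was at 5.01 and 0.717 CPM in control mice and 43.7, 46.7 and 33.98 CPM in ΔTreg mice. Neither overlapped, with log2 fold changes of 3.79 and 3.82, and the inflammatory caspase genes Casp1 and Casp4 had log2 fold changes of 1.98 and 3.21. All 13 feedback genes of NF-kB and JAK-STAT signalling were higher (median 1.13). Socs1, which limits cytokine receptor signalling, rose from 8.27 and 7.57 CPM to 40.99, 33.7 and 27.1 CPM (log2 fold change 2.1). Antimicrobial and acute phase genes rose in 11 of 13 members (median 1.35, or 2.06 without control mouse 1), and among them Serpina3n, a protease inhibitor that neutralises granzyme B, rose from 9.53 and 5.38 CPM to 214, 167 and 168 CPM (log2 fold change 4.61, adjusted p = 2.61e-05).

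Genes of leukocyte adhesion to endothelium rose, and their cell of origin cannot be told from whole skin. Of 8 adhesion genes 6 were higher and 1 was lower (median 1.66), beside 12.1% and 9.39% of all genes. Of 14 blood endothelial markers 3 were higher and 2 lower (median -0.07). Sele, the cytokine-induced E-selectin of endothelium, was at 1.26 and 0.757 CPM in control mice and 21.1, 8.14 and 10.05 CPM in ΔTreg mice. Icam1, a ligand of leukocyte integrins that leukocytes and keratinocytes also express, was at 18.9 and 16.5 CPM in control mice and 67.3, 59.8 and 56.5 CPM in ΔTreg mice. Both were higher in all ΔTreg mice (log2 fold changes 3.66 and 1.79, adjusted p = 0.000557 and 1.63e-06). Jam2, a junctional adhesion molecule, changed by -0.73 against control on the log2 scale (adjusted p = 0.000771) and by -0.8 against ΔLTreg.

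Keratins of stressed keratinocytes rose. Of 14 tested genes of stressed or wounded keratinocytes 10 were higher (median 1.1), beside 12.1% of all genes. Of 11 basal keratinocyte markers 1 was higher (median 0.15), near that share. Krt6b, an inducible keratin of wounded epidermis, was at 3.4 and 2.95 CPM in control mice and 105, 60.6 and 44.5 CPM in ΔTreg mice. Krt16, a keratin induced with it, was at 47.4 and 47.7 CPM in control mice and 168, 143 and 114 CPM in ΔTreg mice. All ΔTreg values of both keratins lay above the controls, with log2 fold changes of 4.46 (SE 0.37, adjusted p = 1.58e-05) and 1.58 (SE 0.20, adjusted p = 0.000274), and against ΔLTreg of 4.12 and 1.47. Their relative Krt6a had a log2 fold change of 1.2. Without control mouse 1, control mouse 2 or ΔTreg mouse 2, 6, 5 and 6 stress genes passed the test, and the median over members with at least 10 counts in every library was 0.5.

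**Figure D3:**
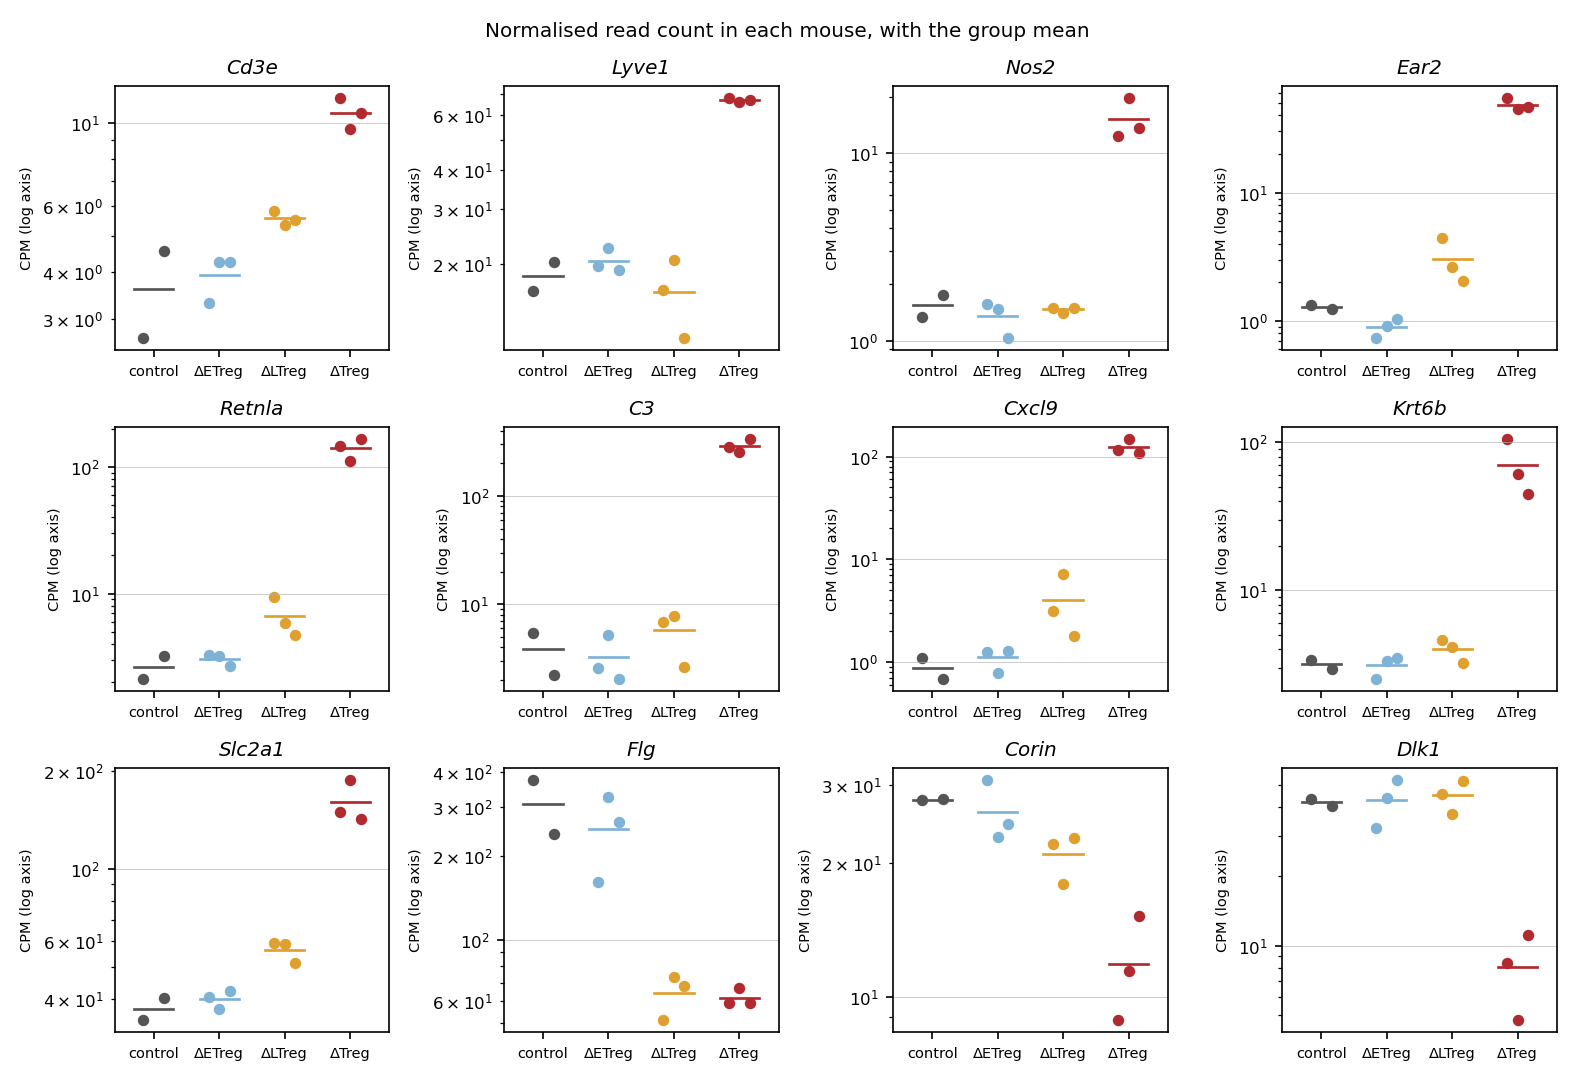
CPM (log axis) of 12 genes in each mouse of the 4 groups, with the group mean as a bar. In Cd3e, Lyve1, Nos2, Ear2, Retnla, C3, Cxcl9, Krt6b and Slc2a1 the ΔTreg mice lie above every control mouse, and in Flg, Corin and Dlk1 they lie below every control mouse.

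Nearly all glycolysis genes rose. Of 17 tested genes 16 were higher (median 0.73), and 11 were higher against ΔLTreg, beside 10.7% of all genes (median 0.32). The list took 0.358% and 0.409% of counts in control mice and 0.597% to 0.656% in ΔTreg mice. Its summed level was 3652 and 4089 CPM in control mice and 3666 to 4031 CPM in ΔETreg mice. The ΔLTreg mice lay between, at 5027 to 5496 CPM, below the 6071 to 6644 CPM of ΔTreg mice. With the day of the control mice not given, age and treatment cannot be told apart against control. Slc2a1, the glucose transporter GLUT1, was at 34.3 and 40.04 CPM in control mice and 150.2, 188 and 143 CPM in ΔTreg mice. Slc16a3, the lactate exporter MCT4, was at 10.7 and 11.2 CPM in control mice and 48.3, 53.7 and 53.1 CPM in ΔTreg mice. Both transporters were higher in every ΔTreg mouse, with log2 fold changes of 2.11 (SE 0.13, adjusted p = 2.26e-06) and 2.24 (SE 0.17, adjusted p = 1.01e-05). The enzymes rose less, with log2 fold changes of 0.98 for the phosphoglycerate kinase gene Pgk1 and 0.59 for the lactate dehydrogenase gene Ldha, and against ΔLTreg of 0.55 and 0.2 (adjusted p = 0.000636 and 0.132). Of 12 hypoxia-response genes 8 were higher (median 0.64). Egln3, a prolyl hydroxylase that marks hypoxia-inducible factors for destruction, was at 56.2 and 61.2 CPM in control mice and 186, 239 and 199.8 CPM in ΔTreg mice. The growth factor gene Vegfa was at 23.01 and 23.4 CPM in control mice and 55.5, 76.5 and 56.8 CPM in ΔTreg mice, and neither gene overlapped (log2 fold changes 1.83 and 1.44, adjusted p = 1.33e-05 and 0.000135). Car9, a carbonic anhydrase that acidifies the cell surroundings, had a log2 fold change of 1.65. Of 69 nuclear genes of the respiratory chain none was higher and 1 was lower (median -0.01), and none of 11 genes of the mitochondrial genome or of 86 ribosomal protein genes passed the test. Without control mouse 1, 13 respiratory chain genes and 32 ribosomal protein genes were lower.

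Start regions of 4 of these genes are shown because hypoxia-inducible factors bind the core ACGTG, whose matches on either strand are in capitals. The windows are GRCm38.p6 chrX:106186850-106187149 on the plus strand (Pgk1, 2 matches), chr7:46845554-46845853 on the plus strand (Ldha, 5 matches), chr12:54203825-54204124 on the minus strand (Egln3, 1 match, first base at -229) and chr4:43506776-43507075 on the plus strand (Car9, 1 match, first base at -18).
Pgk1: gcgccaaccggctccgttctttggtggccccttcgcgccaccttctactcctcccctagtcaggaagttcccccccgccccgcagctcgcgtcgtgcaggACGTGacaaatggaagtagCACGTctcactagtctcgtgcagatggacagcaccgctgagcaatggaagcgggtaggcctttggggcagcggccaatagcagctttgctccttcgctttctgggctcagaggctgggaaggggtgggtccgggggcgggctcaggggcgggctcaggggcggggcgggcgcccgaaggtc
Ldha: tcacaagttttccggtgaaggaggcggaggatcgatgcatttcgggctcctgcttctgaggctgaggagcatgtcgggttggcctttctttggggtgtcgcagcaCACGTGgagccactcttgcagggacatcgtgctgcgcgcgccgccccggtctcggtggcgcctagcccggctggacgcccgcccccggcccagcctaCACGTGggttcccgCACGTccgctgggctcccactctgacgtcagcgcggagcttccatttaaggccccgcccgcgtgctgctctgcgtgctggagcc
Egln3: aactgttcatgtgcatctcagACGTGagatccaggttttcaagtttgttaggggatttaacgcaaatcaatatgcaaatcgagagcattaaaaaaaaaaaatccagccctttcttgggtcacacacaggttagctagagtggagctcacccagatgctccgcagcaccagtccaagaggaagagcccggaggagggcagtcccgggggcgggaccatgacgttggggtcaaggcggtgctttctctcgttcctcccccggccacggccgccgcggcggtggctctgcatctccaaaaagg
Car9: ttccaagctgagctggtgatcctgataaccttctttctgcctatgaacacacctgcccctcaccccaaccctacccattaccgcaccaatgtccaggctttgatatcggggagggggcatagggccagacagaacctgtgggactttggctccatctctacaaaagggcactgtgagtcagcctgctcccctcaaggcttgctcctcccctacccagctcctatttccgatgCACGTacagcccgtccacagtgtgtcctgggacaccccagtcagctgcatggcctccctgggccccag
The core was found in 9 of 17 glycolysis windows (52.9%) and 6 of 10 hypoxia-response windows (60%), beside 24% of all 12824 windows of tested genes and 18.2% of those of genes higher by at least 2-fold. The letters contain a CpG, base composition was not matched, and these counts describe the sequence only.

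Several imprinted growth genes fell. The imprinted growth list also held growth genes that are not imprinted, among them Igf2bp2 and Igf2bp3, so its counts are not of imprinted genes alone. Of its 15 tested members 10 were lower, beside 9.39% of all genes, and none was higher (median -1.15). Against ΔLTreg 7 members were lower, beside 6.11% of all genes (median -0.49). Dlk1, a transmembrane inhibitor of adipocyte and muscle differentiation (GRCm38 chromosome 12, 109452823 to 109463336), was at 43.5 and 40.6 CPM in control mice, 45.7, 37.5 and 52.2 CPM in ΔLTreg mice and 8.4, 4.72 and 11.1 CPM in ΔTreg mice. Igf2, the fetal insulin-like growth factor, was at 289 and 239 CPM in control mice, 180.4, 132 and 174 CPM in ΔLTreg mice and 75.9, 55.3 and 89.8 CPM in ΔTreg mice. The ΔTreg mice were the lowest in both genes. Their log2 fold changes against control were -2.39 (SE 0.28, adjusted p = 0.000185) and -1.84 (SE 0.19, adjusted p = 8.01e-05), and against ΔLTreg they were -2.49 and -1.14 (adjusted p = 0.000101 and 0.00119). The noncoding H19, expressed from the same imprinted domain as Igf2, was at 1129 and 1292 CPM in control mice and 499, 432 and 572 CPM in ΔTreg mice (log2 fold changes -1.27 and -0.93). Peg3, a zinc finger gene, had a log2 fold change of -1.16 against control and 0.1 against ΔLTreg (adjusted p = 8.95e-05 and 0.612). Because the labels leave out when control mice were harvested, age and treatment cannot be told apart in any change against control. This includes the changes against control of genes that also passed the test against ΔLTreg.

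The perinatal muscle myosin fell against both groups, and the fast adult myosin lay between them. Of 28 tested skeletal muscle genes 3 were higher and 3 lower against control (median 0.30), beside 12.1% and 9.39% of all genes. Against ΔLTreg none was higher and 10 were lower (median -0.83), beside 10.7% and 6.11% of all genes. Without ΔTreg mouse 2 or ΔTreg mouse 3 the first median was 0.46 and 0.14. Myh8, the perinatal heavy chain (GRCm38 chromosome 11, 67277124 to 67308634), was at 368 and 285 CPM in control mice, 514, 264 and 475 CPM in ΔLTreg mice and 48.02, 28.3 and 69.1 CPM in ΔTreg mice. Myh3, the embryonic heavy chain, was at 18.5 and 7.33 CPM in control mice, 19.7, 27.7 and 7.01 CPM in ΔLTreg mice and 4.97, 1.37 and 1.27 CPM in ΔTreg mice. For Myh8 the ΔTreg mice lay below all others, with log2 fold changes of -2.75 (SE 0.34, adjusted p = 0.000267) and -3.11 against ΔLTreg (adjusted p = 0.000101). The fall of Myh3 against control (log2 fold change -2.43, adjusted p = 0.0282) was lost without control mouse 1, ΔTreg mouse 2 or ΔTreg mouse 3, with adjusted p-values of 0.214, 0.0976 and 0.0913, and with DESeq2 (adjusted p = 0.0582). Myh4, the fast adult IIb heavy chain, was at 3.57 and 3.94 CPM in control mice, 4.01, 6.24 and 3 CPM in ΔETreg mice, 168, 77.1 and 274 CPM in ΔLTreg mice and 29.6, 19.3 and 74.8 CPM in ΔTreg mice. ΔTreg mice therefore lay between the controls and the ΔLTreg mice of the same age, with log2 fold changes of 3.46 (adjusted p = 0.00624) and -2.07 (adjusted p = 0.0165), and the first was lost without control mouse 2 (adjusted p = 0.0605). The other adult chains Myh1 and Myh2 did not pass the test against control (log2 fold changes 1.64 and 0.77, adjusted p = 0.0546 and 0.333). Pvalb, the calcium buffer of fast fibres, was at 3.05 and 6.17 CPM in control mice and 37.2, 32.1 and 41.95 CPM in ΔTreg mice. The summed level of the muscle list was 2924 and 2938 CPM in the control mice and 2889 to 5423 CPM in the ΔTreg mice.

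**Figure D4:**
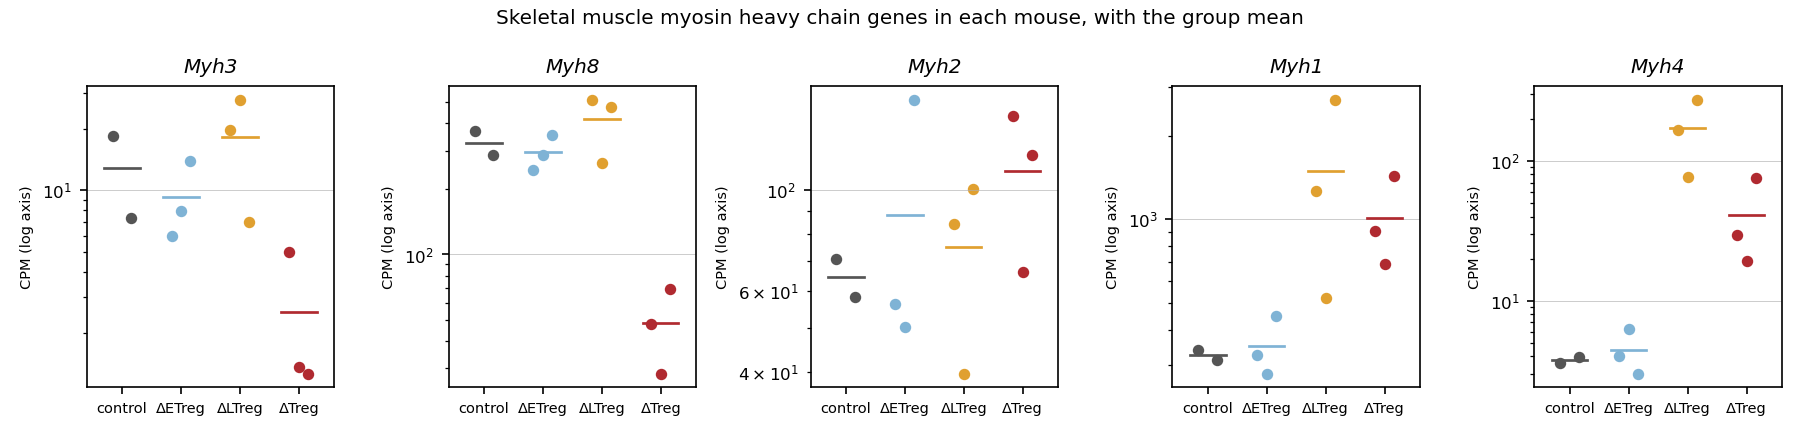
CPM (log axis) of 5 skeletal myosin heavy chain genes in each mouse of the 4 groups, in the order embryonic, perinatal and adult, with the group mean as a bar. Myh8 was at 28.3 to 69.1 CPM in ΔTreg mice and at 264 CPM or more in control and ΔLTreg mice, whereas Myh4 was lowest in the control and ΔETreg mice.

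Marker genes of the dermal papilla were lower. Of 12 dermal papilla genes 8 were lower, beside 9.39% of all genes, and none higher (median -0.55, or -0.58 without control mouse 2). Without ΔTreg mouse 1 or ΔTreg mouse 2, 6 were lower. Against ΔLTreg 2 were lower and 1 was higher (median -0.09), beside 6.11% and 10.7% of all genes. Corin, a serine protease of the dermal papilla, was at 27.7 and 27.8 CPM in control mice, 22.1, 17.9 and 22.8 CPM in ΔLTreg mice and 8.83, 11.4 and 15.2 CPM in ΔTreg mice. Fgf10, a mesenchymal growth factor, was at 6.34 and 7.01 CPM in control mice, 4.05, 3.65 and 3.63 CPM in ΔLTreg mice and 2.92, 3.15 and 3.22 CPM in ΔTreg mice. Corin was lower against both groups (log2 fold changes -1.22 and -0.82, adjusted p = 0.00108 and 0.0085), while Fgf10 passed only the test against control (-1.1 and -0.29, adjusted p = 0.000492 and 0.204), and whether these changes differ was not tested. Hey1, a Notch and BMP target, had log2 fold changes of -0.89 and -0.97 against ΔLTreg. WNT genes were lower in 13 of 32 members (median -0.31) and hedgehog genes in 6 of 13 (median -0.21), beside 9.39% of all genes. Against ΔLTreg 2 and 1 were lower, near the 6.11% of all genes, and 2 and 1 were higher, beside 10.7% of all genes. The medians against ΔLTreg were -0.0106 and 0.0014. Without control mouse 2, ΔTreg mouse 1 or ΔTreg mouse 2, 5, 7 and 6 WNT genes were lower. Shh, the hedgehog ligand of the hair matrix, was at 35.9 and 30.04 CPM in control mice and 20.97, 20.2 and 22.1 CPM in ΔTreg mice (log2 fold change -0.65, adjusted p = 0.00145). Sostdc1, a secreted WNT and BMP modulator, had log2 fold changes of -0.86 against control and -0.81 against ΔLTreg, both past the threshold (adjusted p = 4.68e-05 and 4.37e-05).

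Several collagens were lower than in control skin. Of 33 collagen genes 14 were lower and 1 was higher (median -0.51, or -0.42 without control mouse 1), beside 9.39% and 12.1% of all genes. Against ΔLTreg 2 were lower and 4 higher (median -0.02), near the 6.11% and 10.7% of all genes. Col1a1, the main fibrillar collagen chain of the dermis, was at 8199.97 and 7456 CPM in control mice, 6864, 7655 and 3579 CPM in ΔLTreg mice and 3682, 3723 and 4136 CPM in ΔTreg mice. Its log2 fold change of -1.02 (SE 0.29, adjusted p = 0.03) was lost when any 1 of the 5 mice was left out, with adjusted p-values from 0.0594 to 0.107, and that against ΔLTreg was -0.65 (adjusted p = 0.128). Col4a1, a basement membrane collagen, was at 744 and 780.4 CPM in control mice and 470.4, 465 and 508 CPM in ΔTreg mice (log2 fold change -0.66, adjusted p = 0.000303). Mfap4, a microfibril protein of elastic fibres, was at 269.7 and 223 CPM in control mice, 217, 239 and 134 CPM in ΔLTreg mice and 69.6, 80.6 and 94.01 CPM in ΔTreg mice. Mfap4 was lower in ΔTreg mice than in both groups, with log2 fold changes of -1.6 (adjusted p = 0.000616) and -1.27 (adjusted p = 0.00174). Col6a5, a microfibrillar collagen chain, rose from 4.06 and 2.55 CPM to 61.8, 42.9 and 35.8 CPM (log2 fold change 3.81, adjusted p = 3.13e-05). Matrix metalloproteinases and their inhibitors were higher in 7 and lower in 2 of 20 members (median 0.33, or 0.22 without ΔTreg mouse 1). The shares of all genes were 12.1% and 9.39%, so the lower count was near its share. The inhibitor gene Timp1 rose from 3.89 and 2.23 CPM to 31.5, 22.1 and 17.2 CPM (log2 fold change 2.93), and the collagenase gene Mmp13 had a ratio of 382 (95% exact interval 68.3 to 15109). Fibroblast markers, with Col1a1 among them, were lower in 5 of 14 members (median -0.55), beside 9.39% of all genes. Only 0 or 1 was lower when a ΔTreg mouse was left out. The median was -0.57 without control mouse 1 and -0.43 without control mouse 2.

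Cell cycle transcripts were lower by small amounts. Of 30 genes of DNA replication and mitosis 19 were lower, beside 9.39% of all genes, and none higher (median -0.26). Against ΔLTreg 4 were lower, beside 6.11% of all genes (median -0.09). The summed level was 2081.3 and 2128.5 CPM in control mice and 2117.8 to 2126.9 CPM in ΔETreg mice. It was 1795 to 1937.7 CPM in ΔLTreg mice and 1688.5 to 1826.9 CPM in ΔTreg mice. Against control, age and treatment cannot be told apart. Tyms, which makes thymidylate for DNA synthesis, was at 25.4 and 28.6 CPM in control mice and 20.1, 19.1 and 19.5 CPM in ΔTreg mice (log2 fold change -0.46, adjusted p = 0.00142). Ccna2, a cyclin of S phase and mitosis, was at 64.9 and 65.8 CPM in control mice and 49.3, 49.1 and 54.3 CPM in ΔTreg mice (log2 fold change -0.36). The groups did not overlap in either gene. Without control mouse 2 or ΔTreg mouse 1, 8 and 10 members were lower.

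Several genes of terminal keratinocytes were lower than in control skin, and none was lower than in ΔLTreg skin. Of 21 suprabasal and cornified genes 9 were lower and 1 was higher (median -0.24), and against ΔLTreg none was lower and 3 were higher (median 0.06). Flg, the filaggrin precursor of the cornified layer (GRCm38 chromosome 3, 93273523 to 93293686), was at 375 and 239.8 CPM in control mice, 161, 326 and 264 CPM in ΔETreg mice, 51.2, 73.2 and 68.2 CPM in ΔLTreg mice and 59.04, 66.7 and 59.1 CPM in ΔTreg mice. Krt1, a keratin of differentiating epidermis, was at 992 and 629 CPM in control mice, 421, 869.6 and 806 CPM in ΔETreg mice, 222, 326 and 313 CPM in ΔLTreg mice and 219.8, 209 and 208 CPM in ΔTreg mice. In both genes the ΔTreg and ΔLTreg mice were lower than the control mice. These 2 groups shared the harvest on P13 and DT on P10 and P12, and the day of the control mice is not given. Age and late dosing therefore cannot be told apart. The log2 fold changes were -2.32 (adjusted p = 0.00014) against control and -0.06 (adjusted p = 0.903) against ΔLTreg for Flg, and -1.93 (adjusted p = 0.000664) and -0.43 (adjusted p = 0.278) for Krt1. Rptn, a cornified envelope precursor, rose from 24.3 and 19.9 CPM to 69.5, 66.5 and 57.8 CPM (log2 fold change 1.54). Keratin-associated protein genes of the hair shaft, a family of near-identical copies, gave 3 higher and 8 lower of 56 (median 0.06) against control. The shares of all genes were 12.1% and 9.39%. Against ΔLTreg 10 were higher and none lower (median 0.71), beside 10.7% and 6.11% of all genes. Krtap5-2, with the largest fall of any gene named here, was at 13.7 and 6.33 CPM in control mice, 4.35, 13.02 and 6.81 CPM in ΔETreg mice, 0.209, 0.118 and 0 CPM in ΔLTreg mice and 0.386, 0.0891 and 0.278 CPM in ΔTreg mice. Without control mouse 1, 4 of these Krtap genes were lower, and the 3 higher ones became 0 without control mouse 2 and 1 without control mouse 1, ΔTreg mouse 1 or ΔTreg mouse 2, with medians from -0.0425 to 0.324 over the fits without 1 mouse. Of the cornified genes 6 were lower without control mouse 1, ΔTreg mouse 1 or ΔTreg mouse 2. None of 14 hair shaft keratins passed the test against control.

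**Figure D5:**
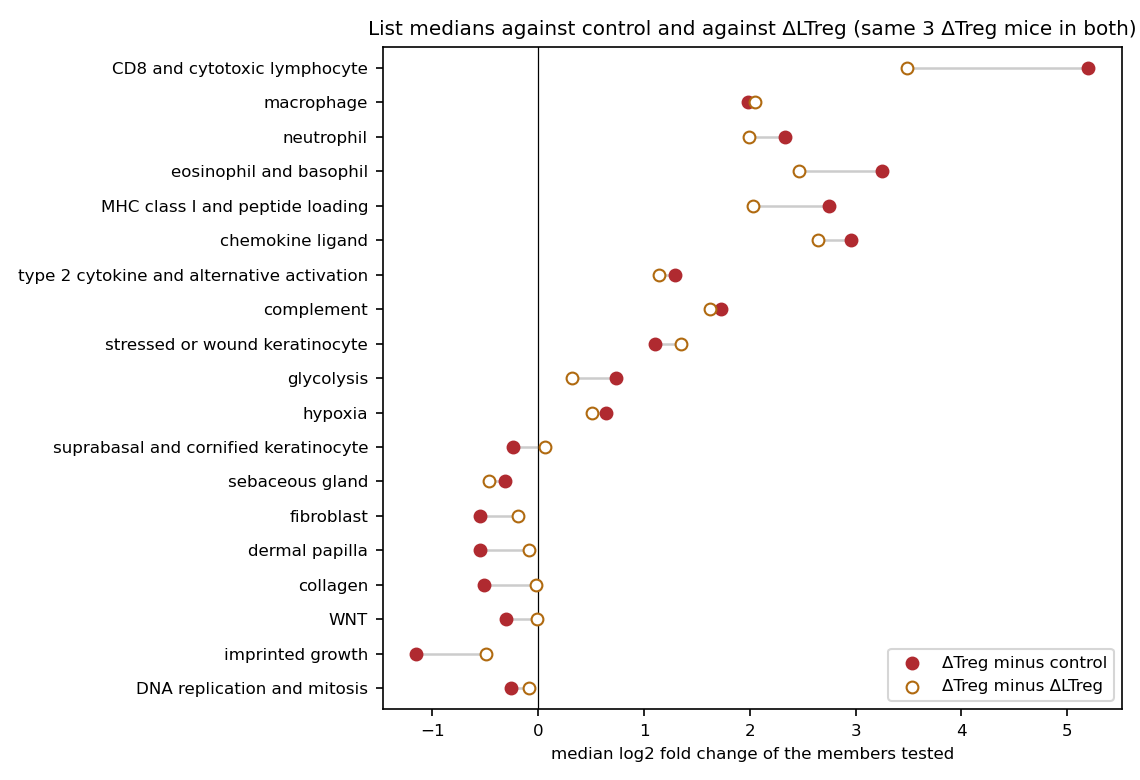
Median log2 fold change of 19 lists for ΔTreg minus control (filled) and ΔTreg minus ΔLTreg (open), which share the 3 ΔTreg mice. The immune lists have medians above 0 in both, for example 2.75 and 2.03 for MHC class I, whereas the collagen list has -0.51 and -0.02 and the imprinted growth list -1.15 and -0.49.

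Some sebaceous genes were lower. Of 15 sebaceous genes 5 were lower, beside 9.39% of all genes (median -0.32), 3 without control mouse 2, and 8 were lower against ΔLTreg (median -0.46). Awat2, an enzyme of wax ester synthesis in sebocytes, had log2 fold changes of -0.98 and -0.8 against ΔLTreg (adjusted p = 0.00109 and 0.00257). Of 17 dermal adipocyte genes 2 were higher and 1 was lower (median -0.14), beside 12.1% and 9.39% of all genes. Against ΔLTreg 3 of them were lower (median -1.05), beside 6.11% of all genes. The adipocyte hormone gene Adipoq was at 4.13 and 8.41 CPM in control mice, 11.7, 20.3 and 6.14 CPM in ΔLTreg mice and 1.63, 3.36 and 3.18 CPM in ΔTreg mice. Its change did not pass the test against control (log2 fold change -1.17, adjusted p = 0.295) and passed it against ΔLTreg (-2.19, adjusted p = 0.0432). Of 14 Schwann cell genes 2 were higher and 1 was lower, near the same shares of all genes against control.

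The genes with the largest changes were partly outside these lists. Pyy, the gut hormone peptide YY (GRCm38 chromosome 11, 102106676 to 102107832), was at 0.07 and 0.0797 CPM in control mice, 0.715, 0.274 and 0.125 CPM in ΔLTreg mice and 112, 120.3 and 81 CPM in ΔTreg mice. Ubd, a ubiquitin-like modifier induced by inflammatory cytokines (GRCm38 chromosome 17, 37193892 to 37196095), was at 0 and 0.0398 CPM in control mice and 12.4, 15.5 and 9.18 CPM in ΔTreg mice. Both were near 0 in the control mice and present in every ΔTreg mouse, with ratios of 1394 (95% exact interval 544 to 5119) for Pyy and 666 (95% exact interval 119 to 26329) for Ubd. Among the falls, Serpinb12, an epithelial protease inhibitor (GRCm38 chromosome 1, 106934449 to 106957080), was at 16.8 and 14.6 CPM in control mice, 2.24, 3.29 and 4.51 CPM in ΔLTreg mice and 1.29, 1.4 and 1.48 CPM in ΔTreg mice. Gnmt, an enzyme that methylates glycine (GRCm38 chromosome 17, 46725664 to 46729168), was at 21.4 and 31.8 CPM in control mice, 15.9, 10.4 and 9.58 CPM in ΔLTreg mice and 3.56, 4.45 and 5.07 CPM in ΔTreg mice. The ΔTreg mice had the lowest values of both, with log2 fold changes of -3.49 and -2.6 against control (adjusted p = 1.01e-05 and 4.72e-05) and -1.26 and -1.45 against ΔLTreg (adjusted p = 0.00778 and 0.00164). Adamts17, a secreted metalloproteinase, had log2 fold changes of -2.00 and -0.87, and Rnf112, a RING finger protein, of -2.11 and -2.19. Acan, the proteoglycan aggrecan, was lower against control only (-2.4, and 0.05 against ΔLTreg).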

How the data were processed

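Whole-skin RNA was sequenced from 11 Foxp3-DTR mice, and the authors deposited whole-number read counts per gene, with no normalization. The submitters' processing notes name Trimmomatic 0.36, STAR 2.5.2b, featureCounts of Subread 1.5.2 and the GRCm38 build, and the strand setting is not given in the sources used here, so reads of overlapping antisense genes cannot be told apart. Groups came from the labels. The table held 49315 genes, of which 49056 were matched by identifier to GENCODE M21 for symbols and coordinates and 259 were not.

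The analysis ran under R 4.3.3 and edgeR 4.0.16. Genes were kept by filterByExpr (minimum count 10), which left 18375, and libraries were scaled by TMM. One quasi-likelihood fit over all 4 groups (common dispersion 0.0120) gave ΔTreg against control and ΔTreg against ΔLTreg, and p-values were adjusted by Benjamini-Hochberg across the 18375 genes, with a threshold of 0.05. CPM used TMM-scaled library sizes and shares used raw totals. SE was derived as |log2 fold change| / √F. Ratios for genes with at most 3 counts in each control library compare pooled counts per scaled library size, with 95% exact intervals. The fit was tested on simulated counts.

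Genes were named by rule: the 15 largest rises and falls without overlap between groups, and in each list the first members, the smallest p-values and the extremes. Mrc1, Cd163, Cd4, B2m, Tap1, Cxcl10, Pgk1, Ldha, Myh1, Myh2, Tcf7 and Timp1 were named after their values were seen. The lists and this comparison were chosen with earlier results of these data known. Lists are described by counts and medians and were not tested. Alternatives were DESeq2 1.42.0, other normalizations and filters, a surrogate variable (sva 3.50.0), mouse sex in the model, and leaving out each mouse in turn. Promoter windows are RefSeq sequence of GRCm38.p6.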

Additional observations from a re-analysis of the deposited data

Results flagged for a closer look

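In 6 genes ΔTreg mice differed from control mice in one direction and from ΔLTreg mice in the other, both past the threshold (edgeR, Benjamini-Hochberg), in comparisons that share the 3 ΔTreg mice. Myh4, the fast adult myosin, had log2 fold changes of 3.46 against control and -2.07 against ΔLTreg, and its call against control was lost without control mouse 2 (adjusted p = 0.0605). The genes below other than Il1f8 are keratin-associated proteins of the hair shaft, in families of similar copies. Krtap28-10 was at 276 and 191 CPM in control mice, 74.1, 73.4 and 62.7 CPM in ΔLTreg mice and 94.3, 136 and 123 CPM in ΔTreg mice, with log2 fold changes of -0.98 against control and 0.75 against ΔLTreg. Krtap28-13 had changes of -1.08 and 0.87, Krtap5-5 of -0.99 and 1.04, and Krtap6-3 of -0.77 and 0.87. The calls of Krtap28-10, Krtap28-13, Krtap5-5 and Krtap6-3 against control were lost without control mouse 1, with adjusted p-values of 0.0946, 0.0644, 0.253 and 0.136. Il1f8, the epithelial cytokine IL-36 beta, was at 2.87 and 2.51 CPM in control mice, 0.924, 1.02 and 0.939 CPM in ΔLTreg mice and 1.93, 2.05 and 1.55 CPM in ΔTreg mice, with log2 fold changes of -0.55 and 0.94, and its call against control was lost in 4 of the 5 fits that left out a mouse. The labels give no harvest day for the control mice, so age cannot be told apart from treatment in the comparison with them.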

How the results depend on the processing

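Leaving out 1 mouse at a time gave 2026 to 3493 genes called against control, 1232 to 2003 of them higher and 794 to 1490 lower, where the full set gave 3946, 2220 and 1726. The lowest counts came without control mouse 2, and the number of lower genes was 1070 without ΔTreg mouse 1 and 1079 without ΔTreg mouse 2. Against ΔLTreg the ranges were 1987 to 2942 called, 1412 to 1882 higher and 575 to 1060 lower, beside 3096, 1973 and 1123, where the 1987 and 575 came without ΔTreg mouse 1 and 631 and 699 were lower without ΔTreg mouse 2 or ΔTreg mouse 3. Lists with at least 50% of members lower numbered 3, and 1 to 4 with a mouse left out, 6 with DESeq2, 6 with edgeR on the 2 groups only and 8 with no filter on low counts. Lists with at least 50% higher numbered 31, and 22 to 30 with a mouse left out. The mean share of MHC class I in control mice was 0.196% of counts outside the mitochondrial genome. Medians near 0 changed sign as single mice were left out, from -0.0152 (without control mouse 1) to 0.0584 for p53 targets, with -0.0032 without ΔTreg mouse 1, from -0.0692 to 0.0211 (without control mouse 1) for epidermal barrier lipids and from -0.0768 to 0.0377 (without control mouse 2) for heat shock genes. The cause of these changes was not tested. Of 309 named genes called against control, 221 were called under each of the 14 alternatives that tested them, and no called gene changed sign. Genes near 0 in control mice were not tested where at least 10 counts in every library were required, so that alternative could not lose their calls. The alternative without the ribosomal-RNA-like features was chosen after seeing the data. No paired analysis was possible because the labels mark mice by letters and share no replicate numbers between groups. At this depth Il17a, Il17f and Ly6g were too low to be tested.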

Other observations

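Innate receptors were higher in ΔTreg than in control skin, with 13 of 17 pattern recognition receptors higher and 1 lower (median log2 fold change 1.40). This count fell to 5, 6 and 7 without control mouse 2, ΔTreg mouse 1 or ΔTreg mouse 3. Tlr2, a receptor of bacterial lipopeptides, rose from 3.78 and 2.67 CPM in control mice to 11.1, 8.76 and 9.24 CPM in ΔTreg mice (log2 fold change 1.58, adjusted p = 0.00127). Of 5 Fc gamma receptor genes 4 were higher (median 2.04), and Fcer1g, their shared signalling chain, had a log2 fold change of 1.75. Of 11 C-type lectin genes 8 were higher (median 1.68), or 2 without control mouse 2, while Clec14a, an endothelial lectin, had log2 fold changes of -0.7 against control and -0.53 against ΔLTreg. The IL-1 family was mixed, with 5 higher and 2 lower of 15 (median 0.12) against control and 10 higher and 1 lower (median 0.94) against ΔLTreg, and among its members Il18bp, a decoy of interleukin-18, had a log2 fold change of 2.25. Without control mouse 2, 2 members of this family were higher, and without control mouse 1 or ΔTreg mouse 1 none was lower, with medians of 0.47 and 0.15. Of 11 listed B cell genes 5, Ms4a1 among them, were too low to be tested, and 3 of the other 6 were higher (median 1.11), or none without control mouse 2 and 1 without control mouse 1. Of 7 listed plasma cell genes 3 were tested (median 0.25) and 1 was higher. This was Ighm, the IgM heavy chain, which was at 5.71 and 6.25 CPM in control mice and 14.8, 14.05 and 16.7 CPM in ΔTreg mice (log2 fold change 1.34). Of 7 gamma-delta T cell genes 2 were higher (median 0.40).

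Of 11 glucocorticoid response genes 5 were higher (median 0.81), or 3 with a median of 0.51 without control mouse 2. Fkbp5, a chaperone of the glucocorticoid receptor, was at 23.4 and 22.5 CPM in control mice, 23.6, 24.8 and 21.9 CPM in ΔLTreg mice and 43.8, 48.6 and 39.5 CPM in ΔTreg mice (log2 fold change 0.94). Of 16 immediate early genes 6 were higher (median 0.45) and 2 were higher against ΔLTreg. Of 14 eicosanoid genes 5 were higher and 1 was lower (median 0.47), or 3 higher without control mouse 1 or ΔTreg mouse 1. The lower one was Ptgds, which makes prostaglandin D2, with log2 fold changes of -0.71 against control and -0.61 against ΔLTreg. Of 8 erythroid genes 3, all globins with near-identical copies, were lower and 1, the anion exchanger gene Slc4a1, was higher. The call of Slc4a1 was lost in each of the 5 fits without 1 mouse, with adjusted p-values from 0.0555 to 0.250. No globin was lower without control mouse 1, and 1 was lower without control mouse 2, ΔTreg mouse 1 or ΔTreg mouse 3.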
